A study of Mus musculus with 20 samples.

Results

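All 15 arrays of CD44+CD8+ T cells from SD-101-treated mice were set against the 5 arrays from saline-treated mice. The members were chosen by treatment label alone, as every array whose title names SD-101, and they make up 15 of the 20 arrays of the series. The cells had been purified from mouse lungs bearing 4T1 tumours, a mammary carcinoma line, and every group, the controls included, carried these tumours and was treated by the intranasal route. The control group, Saline-CTRL, had 5 arrays and received saline alone. The SD-101 group had 6 arrays and received a ligand of the DNA-sensing receptor TLR9. The SD-101+anti-PD-1 group had 5 arrays and also received an antibody against PD-1, an inhibitory receptor of activated T cells. The SD-101+anti-PD-1+a-CD4 group had 4 arrays and received a further agent that the labels name a-CD4 without saying what it does, and it is called the triple arm here. The labels give no strain, age, dose or time. Nor do they say whether the numbered samples were taken from separate animals, and a p-value here therefore reflects only how much the deposited samples vary. The comparison asks which genes differed from saline in the arms that received SD-101. No group received anti-PD-1 or a-CD4 without SD-101. In the arms given these agents, their effects therefore cannot be told apart from that of SD-101.

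TLR9 sits in the endosomes of plasmacytoid dendritic cells, B cells and other immune cells, and binds DNA rich in unmethylated CpG. Its signal through MyD88 and IRF7 releases type I interferons. These act on nearly every cell through a factor complex that includes STAT2 and IRF9 and binds the interferon-stimulated response element in the promoters of antiviral genes. In CD8 T cells, interferons and interleukins also support the cytotoxic programme of granzymes, chemokines and killer-cell receptors.

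Each value is a log2 expression level from an array, so a difference of 1 is a doubling of signal. The arms were averaged with equal weight and a gene was called to rise or fall at a Benjamini-Hochberg adjusted p under 0.05 in limma, over 17097 genes. Across the 3 arms together, 430 genes rose (2.52% of those tested) and 356 fell (2.08%), 786 in all (4.6%). An unadjusted p under 0.05 was found for 2955. Of the 786 called genes, 783 had the same sign in all 3 arms, but the sizes often differed. A gene was counted as moved alike when it was called, its 3 arm differences shared a sign, and the smallest was at least 0.5 of the largest. This held for 166 genes that rose (0.971%) and 84 that fell (0.491%), which are 38.6% of the rises and 23.6% of the falls. The other 533 of one sign had a smaller ratio. The 3 arm comparisons share the 5 saline arrays, so a shared sign among them is not independent support.

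The sorted cell type and other lung cells were both seen in the arrays. Cd8a ran from 9.45 to 11.66 log2 over the 20 arrays and Cd4 from 2.69 to 3.51, while Sftpc, a surfactant gene of alveolar cells, ran from 12.53 to 13.44. The mean of 14 T cell identity genes was lowest on replicate 2 of the triple arm (7.98) and on Saline-CTRL replicate 1 (8.48), and 8.92 or more on the others. Without these 2 arrays 838 genes were called and 275 moved alike, 171 of them among the original 250. Leaving out Saline-CTRL replicate 3 alone gave 248 called and 110 moved alike, and without Saline-CTRL replicate 4, 521 and 156. With all SD-101 arrays fitted as 1 group, 152 were called.

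The genes that rose alike included most of the listed interferon genes and several cytotoxic effector genes. The lists were drawn up with earlier results of these data known, so their counts describe the members and are not a test. Over all genes, 2.52% rose, 2.08% fell and 0.971% rose alike. Of the 31 measured type I interferon-stimulated genes, 23 rose and each of these moved alike. Of the 13 interferon-inducible GTPases, 11 rose and again all of these moved alike. By contrast, 20 of 21 endothelial marker genes fell and 10 of 21 mitosis genes rose, and none of either group moved alike. In bulk samples a larger share of cells that make a gene and more RNA per cell cannot be told apart.

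A stricter count asked for a call in each of the 3 arms separately. It left 34 genes that rose (0.199%) and 2 that fell (0.0117%). Of these 36 genes, 35 also moved alike, the exception being Nabp1 with a ratio just under 0.5. SD-101 without antibody gave the fewest calls of the 3, at 57 genes (0.333%), against 962 for SD-101+anti-PD-1 (5.63%) and 1218 for the triple arm (7.12%). Among the genes moved alike, 38 were called in SD-101, 160 in SD-101+anti-PD-1 and 192 in the triple arm. With no test at all, 52 genes (0.304%) were higher on every SD-101 array than on every saline array, and 3 (0.0175%) were lower. The genes moved alike held 43 of these 52 and 2 of these 3.

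Promoter sequences are shown for some of the genes called in each arm. They were picked because their windows hold the interferon-stimulated response element, so they do not show how common it is. Whether an interferon acted, and which one, was not tested. The following windows of RefSeq promoters (build GRCm38.p6, written 5′ to 3′ along the gene) come from genes that rose alike in all 3 arms, and capitals mark every match to GAAANNGAAA, the core of the interferon-stimulated response element, read on either strand so that some appear as the reverse complement.
Rsad2, chr12:26456543-26456592, minus strand: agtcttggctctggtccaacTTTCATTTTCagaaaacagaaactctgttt
Oas1g, chr5:120887596-120887651, minus strand: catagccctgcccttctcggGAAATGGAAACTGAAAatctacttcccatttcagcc
Stat2, chr10:128270256-128270305, plus strand: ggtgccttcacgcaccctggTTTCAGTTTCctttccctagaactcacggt
Gbp3, chr3:142559979-142560034, plus strand: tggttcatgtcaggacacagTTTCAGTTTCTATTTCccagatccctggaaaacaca
Irgm1, chr11:48871415-48871470, minus strand: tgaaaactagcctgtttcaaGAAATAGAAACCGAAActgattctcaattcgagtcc
Igtp, chr11:58199502-58199551, plus strand: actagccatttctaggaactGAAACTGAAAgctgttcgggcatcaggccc
Irgm2, chr11:58214893-58214942, plus strand: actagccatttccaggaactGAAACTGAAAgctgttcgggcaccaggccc

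The first match in these windows was at -18 in Oas1g, -30 in Irgm1, -34 in Igtp, -45 in Gbp3, -64 in Irgm2, -120 in Rsad2 and -222 in Stat2, counted in bases from the start site, and the searched window itself limits how far it can lie. Oas1g, Gbp3 and Irgm1 each held 2 overlapping copies. Igtp and Irgm2, neighbours on chromosome 11, share most of their window, so they are not separate instances. Over the 131 genes that rose alike and had a RefSeq promoter window of the same length (250 bases before to 50 after the start), 30 held the element, or 22.9%. The share was 3.59% over all 13605 measured genes with a window, and 4.69% (10 of 213) among genes that rose but did not move alike. Among genes that fell alike it was 1.52% (1 of 66), and among those that fell otherwise 6.12% (12 of 196). Of the 23 genes called in each arm with a window, 10 held it (43.5%).

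Another motif was searched in the same way. The E-box CACGTG, bound by clock and Myc family factors, stood in 16.7% of genes that fell alike (11 of 66), 3.05% of those that rose alike and 10.2% of all genes. These shares describe letters in a window and not bound sites.

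**Figure D1:**
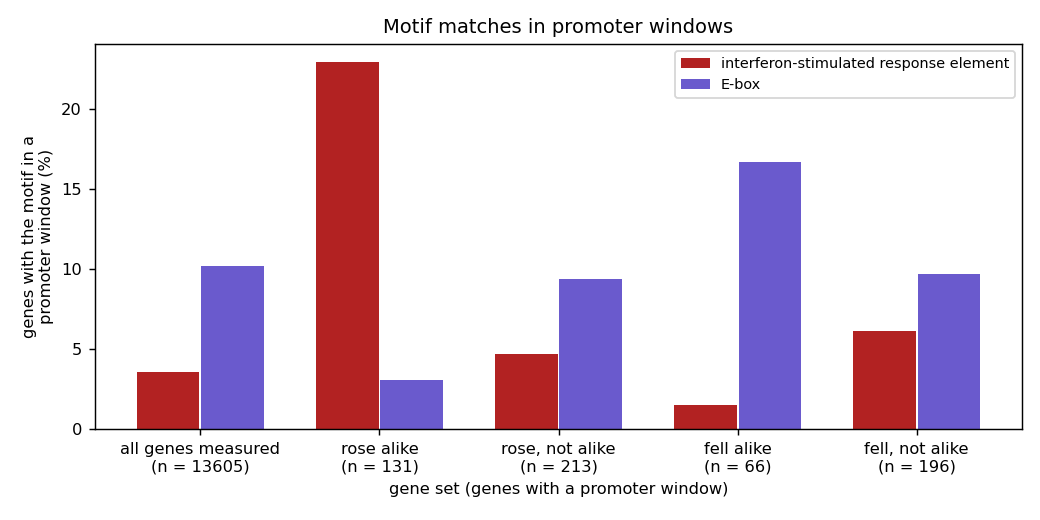
Bars give the percentage of genes with at least 1 match to each motif in a promoter window, by gene set, with the number of genes that have a window under each set. The interferon-stimulated response element reaches 22.9% in genes that rose alike and is between 1.52% and 6.12% in the other sets.

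Antiviral effector genes were among the largest rises, and the threshold of likeness limits how far their arms can differ. Mx1, a GTPase that blocks viral nucleocapsids, stood at 4.34, 5.06, 4.74, 4.01 and 5.48 log2 on the saline arrays. On the SD-101 arrays its lowest, median and highest values were 6.27, 6.65 and 7.35. On the SD-101+anti-PD-1 arrays it was 7.17, 6.26, 7.07, 6.72 and 7.74, and on the triple-arm arrays 7.31, 5.50, 7.67 and 6.90. All 15 SD-101 arrays were thus above all saline arrays, with triple-arm replicate 2 closest to them. The pooled rise was 2.13 log2 (SE 0.295, 4.37-fold, limma adjusted p = 7.89e-04), made of 1.999 in SD-101, 2.27 in SD-101+anti-PD-1 and 2.12 in the triple arm. The 95% interval of the SD-101+anti-PD-1 minus SD-101 difference was -0.45 to 0.99 log2, so a change of that size in either direction lay within the error.

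Rsad2, which encodes viperin, an enzyme that makes a chain-terminating nucleotide, was 5.31, 5.63, 5.00, 5.42 and 6.03 log2 on saline arrays. It ran from 6.46 through a median of 7.06 to 7.84 on SD-101 arrays. It was 8.02, 7.21, 7.95, 7.78 and 8.15 with anti-PD-1 and 7.80, 7.43, 7.99 and 7.05 in the triple arm. All 3 arms lay above the saline range, and the pooled rise was 2.02 log2 (SE 0.224, 4.07-fold, limma adjusted p = 1.37e-04). Isg20, an exonuclease that degrades viral RNA, had the joint smallest adjusted p of all genes, 9.57e-05 in limma, with a pooled rise of 1.26 log2 (SE 0.128). It rose by 0.88 in SD-101, 1.42 in SD-101+anti-PD-1 and 1.48 in the triple arm. It was the only one of the 250 genes moved alike that also passed the test between the 3 arms (adjusted p = 0.0364). Its difference between SD-101+anti-PD-1 and SD-101 was 0.54 log2, with a 95% interval of 0.23 to 0.86.

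Most other antiviral genes moved in the same way. Ifi44l rose by 1.93 log2 and was the only one of the 12 largest rises whose largest arm value was that of SD-101 alone, at 2.35 against 1.76 and 1.69. Oas1g, of the family that senses double-stranded RNA and activates RNase L, rose by 1.52, and the nucleic acid sensor Zbp1 by 1.35. Ifit1bl1, a member of the family that binds viral RNA caps, rose by 1.68, with triple-arm replicate 2, at 6.73, inside the saline range of 5.83 to 7.58. Csprs, whose function is little described, rose by 1.38, with 1.28, 1.32 and 1.53 in the 3 arms. Parp9, an ADP-ribosyltransferase partner in interferon signalling, rose by 0.65. Oas and Ifit genes have close relatives whose transcripts may share probes, so a single member's value is uncertain.

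Irf7, the factor that drives interferon genes downstream of TLR9, rose by 1.26 log2 (SE 0.212, limma adjusted p = 0.00268), with 1.25, 1.45 and 1.07 in the 3 arms. Outside the naming rule, and chosen after their values were seen, the inhibitor Usp18, which removes ISG15 from proteins, rose by 1.49, Stat2 by 0.81 and the DNA-sensing adaptor Sting1 by 0.64. All of these were called in each arm. Of the 13 measured genes of TLR9 signalling, Irf7 rose and Nfkbia, the inhibitor of NF-kappaB, fell by 0.91, and 11 were not called. Tlr9 itself was between 2.72 and 3.14 on saline arrays and 2.61 and 3.23 on SD-101 arrays, a pooled difference of -0.08 (adjusted p = 0.751). Its probe set was dim, below the median of all probe sets on an array (3.52 to 3.75), so a change could be missed.

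As a group, the 31 type I interferon-stimulated genes had a median pooled difference of 0.91 log2, against 0.03 over all genes, with medians of 0.78 in SD-101, 1.09 in SD-101+anti-PD-1 and 0.88 in the triple arm. All 31 had a positive pooled difference, as had 10083 of all 17097 genes. Of the 31, 23 rose and 12 were called in each arm. Their mean level was 6.34 to 6.98 log2 on the saline arrays and 7.21 to 8.04 on the SD-101 arrays, so the groups did not overlap. Without Saline-CTRL replicate 3 the number that rose was 18, the lowest over the arrays left out in turn. In a model with the levels of 4 other cell types as covariates (endothelial, macrophage and monocyte, alveolar epithelial and B cell), 0 of the 31 rose. The estimates there were 2.04 for Mx1 (adjusted p = 0.264), 2.30 for Rsad2 (0.148) and 1.05 for Isg20 (0.245). Their sizes stayed close to those above while their calls were lost.

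**Figure D2:**
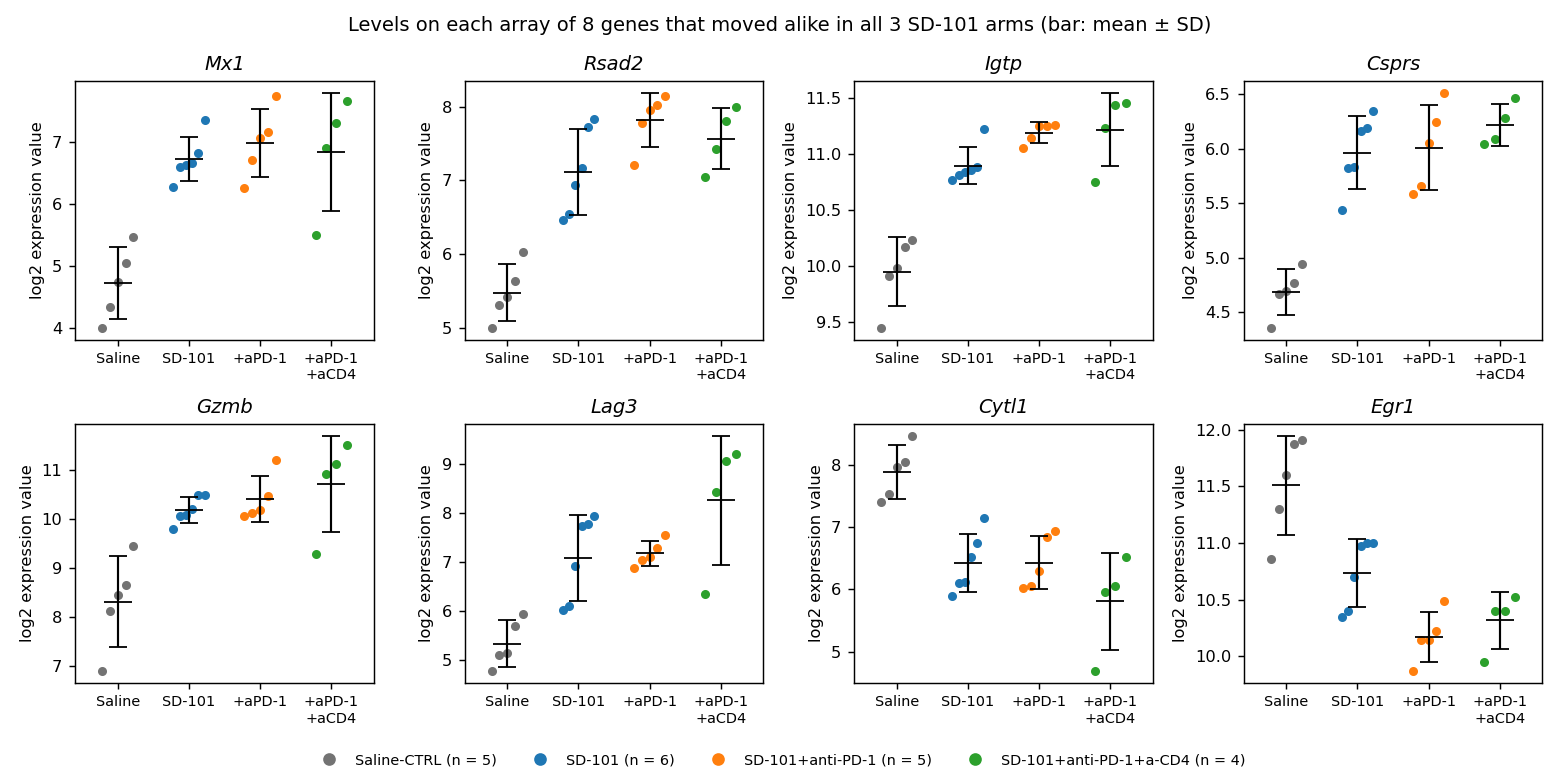
Each point is the log2 level of a gene on 1 array, by treatment group, with the group mean and SD as a bar. Every SD-101-treated array is above every saline array for Mx1, Rsad2, Igtp, Csprs and Lag3, and below for Cytl1, while Gzmb and Egr1 have 14 and 12 of 15 arrays outside the saline range.

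The interferon-inducible GTPases, which attack the vacuoles of intracellular pathogens, rose as well. Igtp, also called Irgm3, was 9.45, 10.23, 10.17, 9.91 and 9.98 log2 on saline arrays. On SD-101 arrays it ran from 10.77 through 10.85 to 11.22. With anti-PD-1 it was 11.14, 11.05, 11.25, 11.25 and 11.26, and in the triple arm 11.45, 10.75, 11.44 and 11.23. No SD-101 array reached down to the saline range. The pooled rise of 1.15 log2 (SE 0.119, 2.22-fold) shared the smallest adjusted p of all genes (9.57e-05, limma).

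Iigp1 rose by 1.86 log2, with 1.49, 2.03 and 2.08 in the 3 arms. The regulatory members Irgm1 and Irgm2, which hold the other GTPases inactive on host membranes, rose by 1.04 and 1.15. Irgm2 was 1 of only 2 named genes that kept their call with the 4 cell type levels as covariates, at 1.85 log2 (adjusted p = 0.00239). The other was Pigr, an airway gene that did not move alike, at 3.29 (limma adjusted p = 0.0232). The corresponding values were 1.32 for Igtp and 1.98 for Iigp1, each with an adjusted p of 0.0867. Gbp3, a guanylate-binding protein, rose by 0.98. Gbp10, named after its value was seen, had the most even response of all genes moved alike, with 1.35 in each arm and a ratio of 0.996. Over the arrays left out in turn, 11 or 12 of these 13 genes rose. Their median difference was 0.96, with 0.80, 0.89 and 1.2 in the 3 arms.

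Most called MHC class I genes rose by small steps, and few class II genes were called. Of 14 genes of MHC class I presentation and the immunoproteasome, 10 rose, 8 of them alike, with a median of 0.35 log2. Psmb9, an interferon-inducible catalytic subunit of the immunoproteasome, rose by 0.63 (SE 0.1, limma adjusted p = 0.00184) and was higher on all 15 SD-101 arrays than on any saline array. Psmb8 and the proteasome activator Psme2 rose by 0.43 and 0.35. Ubd, a ubiquitin-like protein, did not move alike, at 2.40 in SD-101, 1.10 with anti-PD-1 and 3.03 in the triple arm (test between arms, adjusted p = 0.0221). Without Saline-CTRL replicate 1, 5 of the 14 rose. Of 12 genes of MHC class II presentation, made mainly by cells other than mouse T cells, 4 rose and moved alike: H2-Aa by 1.11, H2-Eb1 by 1.17, H2-DMa by 0.65 and Cd86 by 1.44. Without Saline-CTRL replicate 3, 0 of these rose. Over the 20 fits that left out 1 array, the call was lost in 14 for H2-Eb1 and 10 for H2-Aa. It was lost in 3 each for H2-DMa and Cd86. The mean B cell marker level was 3.63 to 3.91 on saline arrays, 3.86 to 4.91 in SD-101, 3.85 to 4.25 with anti-PD-1 and 3.24 to 3.90 in the triple arm, and 1 of its 13 markers (Fcer2a) rose. No dendritic cell marker of 11 and no macrophage marker of 19 was called. The dendritic cell level was 3.74 to 4.18 on saline arrays, 3.88 to 6.09 in SD-101, 3.75 to 4.20 with anti-PD-1 and 4.07 to 4.41 in the triple arm. The macrophage level was 4.58 to 5.38, 4.97 to 6.90, 4.84 to 5.20 and 4.42 to 5.16 in the same order. SD-101 replicates 3 and 4 were above all saline arrays for both lists, and replicate 4 also had the highest class II level, 8.96. The part of other cells in the class II rise was not tested.

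**Figure D3:**
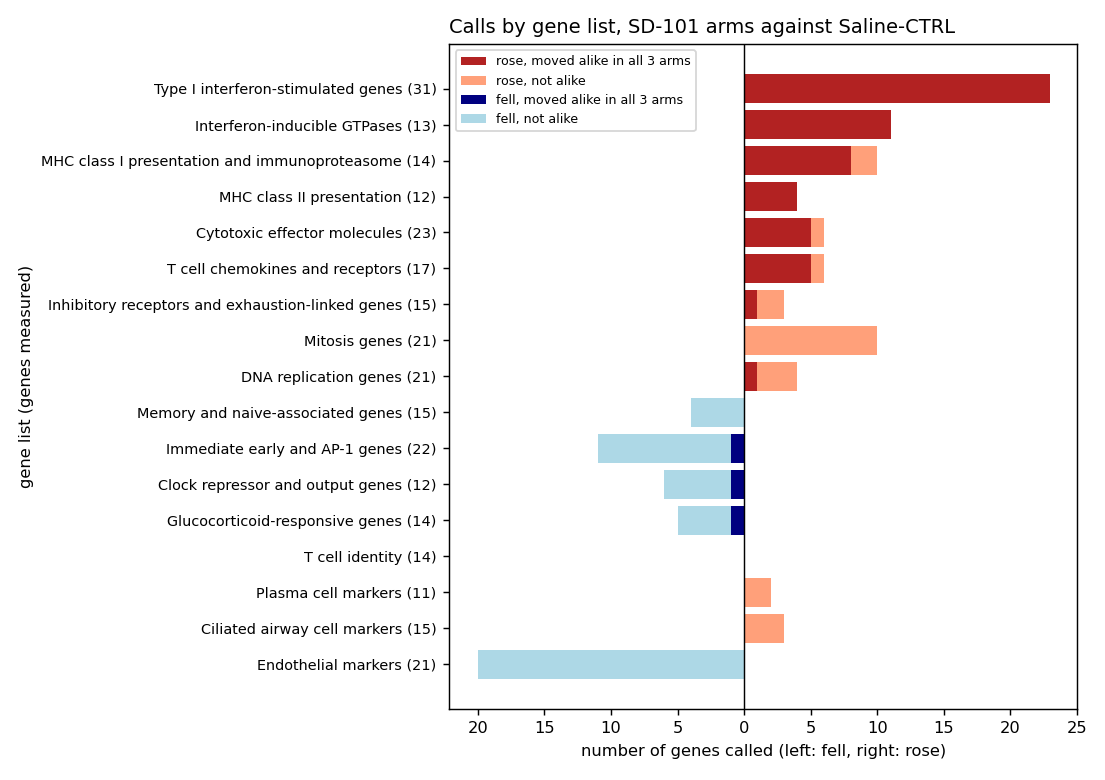
Bars to the right count genes of each list that rose and bars to the left genes that fell in the pooled comparison, split into those that moved alike in all 3 arms (dark) and the rest (pale), with the number measured in brackets. The rises of both interferon lists are wholly dark, while those of mitosis genes and the fall of endothelial markers are wholly pale.

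Some cytotoxic effector genes rose. Gzmb, the granzyme that triggers apoptosis in target cells, was 8.11, 9.43, 8.65, 8.43 and 6.89 log2 on saline arrays. It ran from 9.79 through 10.14 to 10.49 on SD-101 arrays. It was 10.05, 10.18, 11.19, 10.12 and 10.45 with anti-PD-1 and 11.12, 9.27, 11.50 and 10.91 in the triple arm. Of the 15 arrays, 14 were above the saline range, and triple-arm replicate 2 was inside it. The pooled rise was 2.12 log2 (SE 0.334, 4.35-fold, limma adjusted p = 0.00176), with 1.88, 2.09 and 2.40 in the 3 arms.

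Gzmk, a granzyme of early effector and memory cells, rose by 1.65 log2 (1.11, 1.88 and 1.97), and Klrk1, the activating receptor NKG2D, by 1.53 (1.39, 1.49 and 1.72). Ccl5, a chemokine of effector T cells, rose by 0.70. In all, 6 of 23 cytotoxic genes rose, 5 of them alike, and their median was 0.56. Without Saline-CTRL replicate 1, 3 rose, and over all arrays left out in turn the count reached 13. The T-box factor Tbx21, which drives the effector state, rose by 1.43 and moved alike, as 1 of 2 called among 15 effector transcription factors. Ifng, the gene of interferon-gamma, was not called, at 0.96 log2 (adjusted p = 0.228). Its saline arrays ran from 6.74 to 8.37 and its SD-101 arrays from 7.58 to 9.98.

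No gene of T cell identity was called. The 14 measured had a median difference of 0.18 log2. Cd8a differed by 0.47 (adjusted p = 0.42), Cd8b1 by 0.11 (0.877) and Cd44 by 0.25 (0.523), and Cd4 by 0.07 (0.835). None of 12 NK cell markers was called, but their mean level was 5.70 to 7.06 log2 on SD-101 arrays, above all saline arrays (5.09 to 5.64). It was 5.25 to 5.66 with anti-PD-1 and 4.77 to 5.87 in the triple arm, which overlap saline. Some of these markers, such as Eomes, Gzma and Nkg7, are also made by effector CD8 T cells, and the part of NK cells in the cytotoxic rise was not tested. With the 4 cell type levels as covariates Gzmb stood at 1.54 (adjusted p = 0.427) and Lag3 at 0.80 (0.705).

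Chemokines and checkpoint genes were more mixed. Of 17 T cell chemokines and receptors, 6 rose, 5 alike. Ccl3, which attracts myeloid and T cells, rose by 1.96 log2 (1.89, 1.54 and 2.44). Cxcr3, the receptor for interferon-induced chemokines, rose by 1.36, and its ligand Cxcl10 by 1.43. Without Saline-CTRL replicate 3, 2 of the 17 rose. Lag3, an inhibitory receptor that binds MHC class II, was 5.10, 5.94, 5.13, 5.69 and 4.77 on saline arrays. It ran from 6.01 through 7.33 to 7.94 in SD-101. It was 6.88, 7.10, 7.55, 7.04 and 7.28 with anti-PD-1 and 9.19, 6.34, 9.05 and 8.42 in the triple arm. No SD-101 array overlapped the saline range, and the rise was 2.17 log2 (SE 0.386, limma adjusted p = 0.00352).

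Lag3 was the only one of 15 inhibitory receptor and exhaustion-linked genes to move alike. Pdcd1, the gene of PD-1, rose by 1.71, with 1.17, 1.36 and 2.60 in the 3 arms, a ratio of 0.449. Cd160 rose by 1.92 with a ratio of 0.42. For both, the test between arms was not passed (adjusted p = 0.104 and 0.0994). Cd274, the gene of the PD-1 ligand PD-L1 and an interferon target, was 6.15, 6.70, 7.22, 6.87 and 7.07 on saline arrays and 7.08 to 8.34 on SD-101 arrays. Of these 15 arrays, 13 were above the saline range. Its pooled rise of 0.89 log2 (SE 0.192, limma adjusted p = 0.0118) was even, at 0.95, 0.76 and 0.97, and it was called alone only in the triple arm (adjusted p = 0.0227).

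A further few leading rises lie outside these groups. Ly6i, a surface protein of the Ly6 family, showed the greatest rise of all genes moved alike, 2.84 log2 (SE 0.438, 7.16-fold, limma adjusted p = 0.00144). It was 4.57, 5.25, 4.93, 4.36 and 4.53 on saline arrays. It ran from 6.25 through 6.96 to 8.80 in SD-101. It was 9.55, 8.19, 7.74, 8.59 and 8.83 with anti-PD-1 and 6.96, 5.31, 8.90 and 7.02 in the triple arm. All 15 arrays exceeded saline, though triple-arm replicate 2 did so by little, at 5.31 against 5.25. Cysltr2, a leukotriene receptor, rose by 1.81 on all 15 arrays and was called in each arm. Cpxm1, a carboxypeptidase-like protein, rose by 1.89 with only 9 of 15 arrays above saline.

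**Figure D4:**
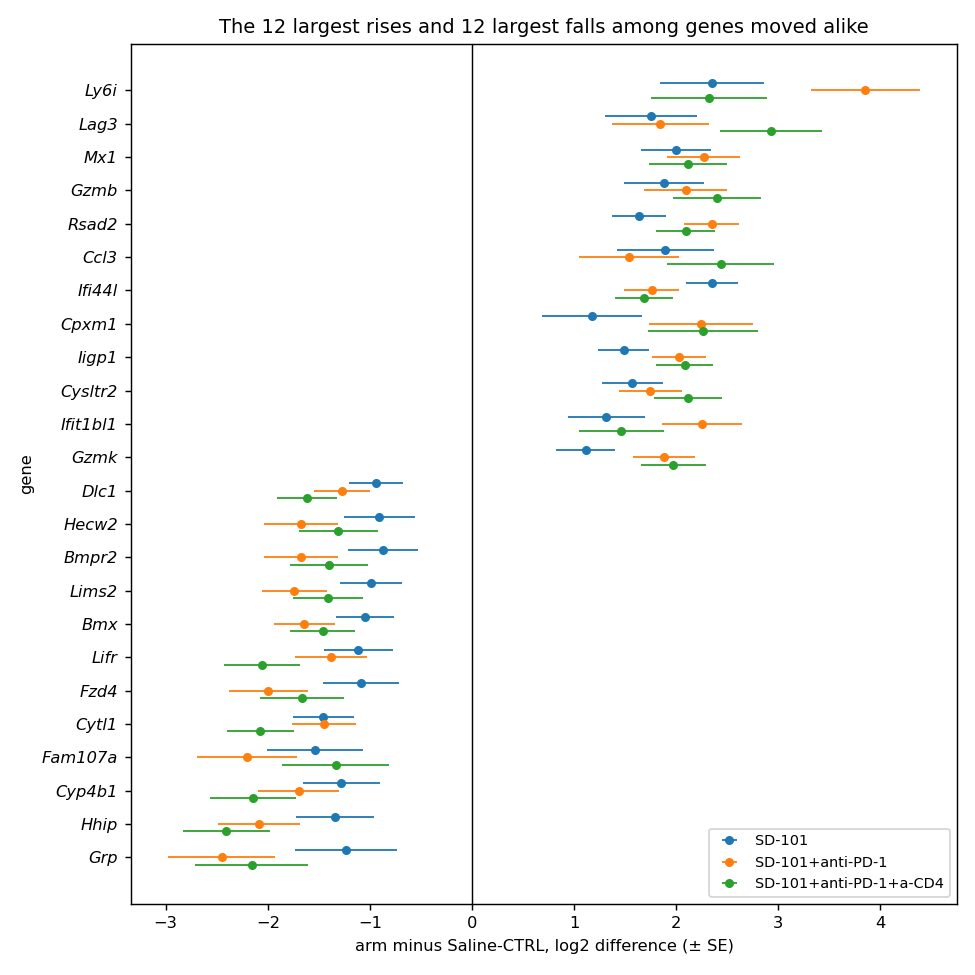
Points give the log2 difference of each SD-101 arm from Saline-CTRL and bars its SE, for the 12 largest rises and 12 largest falls among genes moved alike. SD-101 alone is nearest to 0 for most of the rises and most of the falls, while the SE bars of the 3 arms overlap for Mx1 and Gzmb.

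The genes that fell alike were of other kinds. The largest falls were of Grp, a neuropeptide, at 1.95 log2 below saline, and of Hhip, an antagonist of hedgehog ligands, also at 1.95 below. Cyp4b1, a cytochrome P450 of lung epithelium, differed by -1.71, the Wnt receptor Fzd4 by -1.58 and the cytokine receptor Lifr by -1.52. Bmx, a kinase of endothelium, differed by -1.39, the bone morphogenetic protein receptor Bmpr2 by -1.32 and Dlc1 by -1.28. Fam107a (-1.69), Lims2 (-1.38) and Hecw2 (-1.30) complete the 12 with Cytl1. Grp, Bmx, Fam107a and Hecw2 were dim, with means of 3.67, 3.44, 3.97 and 3.21 log2 over the 20 arrays. The median of all probe sets was 3.52 to 3.75 on an array. Of the 15 SD-101 arrays, 7, 9, 10 and 10 were below all saline arrays for these genes. For the rest of the 12 this number ran from 11 (Fzd4 and Bmpr2) to 15 (Cytl1).

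Cytl1, a secreted cytokine-like protein, was the only named fall that was called in each arm. It was 7.53, 7.97, 8.46, 8.05 and 7.40 log2 on saline arrays. It ran from 5.90 through 6.32 to 7.15 in SD-101. It was 6.84, 6.02, 6.06, 6.93 and 6.30 with anti-PD-1 and 6.05, 4.69, 6.52 and 5.96 in the triple arm. All 15 arrays were below saline, and the fall was -1.66 log2 (SE 0.256, limma adjusted p = 0.00144). The only other gene to fall in each arm was Slc12a5, a chloride transporter, at -0.83, named after its value was seen.

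SD-101 alone showed the smallest change of the 3 arms in both directions, for 57 of the 84 genes that fell alike and 121 of the 166 that rose alike. Hhip differed by -1.34 in SD-101, -2.09 with anti-PD-1 and -2.41 in the triple arm. Grp, just inside the threshold of likeness at a ratio of 0.503, differed by -1.23, -2.45 and -2.16. The nearest gene outside it among the falls was Cav1, the caveolin of endothelium and epithelium, at 0.498. On the rising side, Pfkp at 0.503 was just inside and Arel1 at 0.499 just outside.

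Endothelial markers also fell in the pooled comparison, but 0 of 21 moved alike. Their part in the falls above was not tested. The mean of 21 endothelial markers was 7.65 to 9.73 log2 on saline arrays, 6.85 to 9.13 in SD-101, 5.13 to 6.05 with anti-PD-1 and 6.31 to 7.68 in the triple arm. Of them 20 fell, with a median of -2.01, and 19 differed between the arms. Their fall was -0.55 in SD-101, -3.49 with anti-PD-1 and -2.08 in the triple arm, by median. Clec14a, a receptor of vessel endothelium, differed by -0.95, -4.47 and -2.83 (test between arms, adjusted p = 0.00303). Without Saline-CTRL replicate 3, whose level was the highest, 12 of the 21 fell. With the 4 cell type levels as covariates, Hhip stood at -0.31 (adjusted p = 0.815), Cyp4b1 at -0.17 (0.918), Fzd4 at -0.10 (0.913) and Cytl1 at -0.999 (0.495). Of 14 alveolar epithelial markers 0 were called, and Sftpc differed by 0.09 (adjusted p = 0.799).

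**Figure D5:**
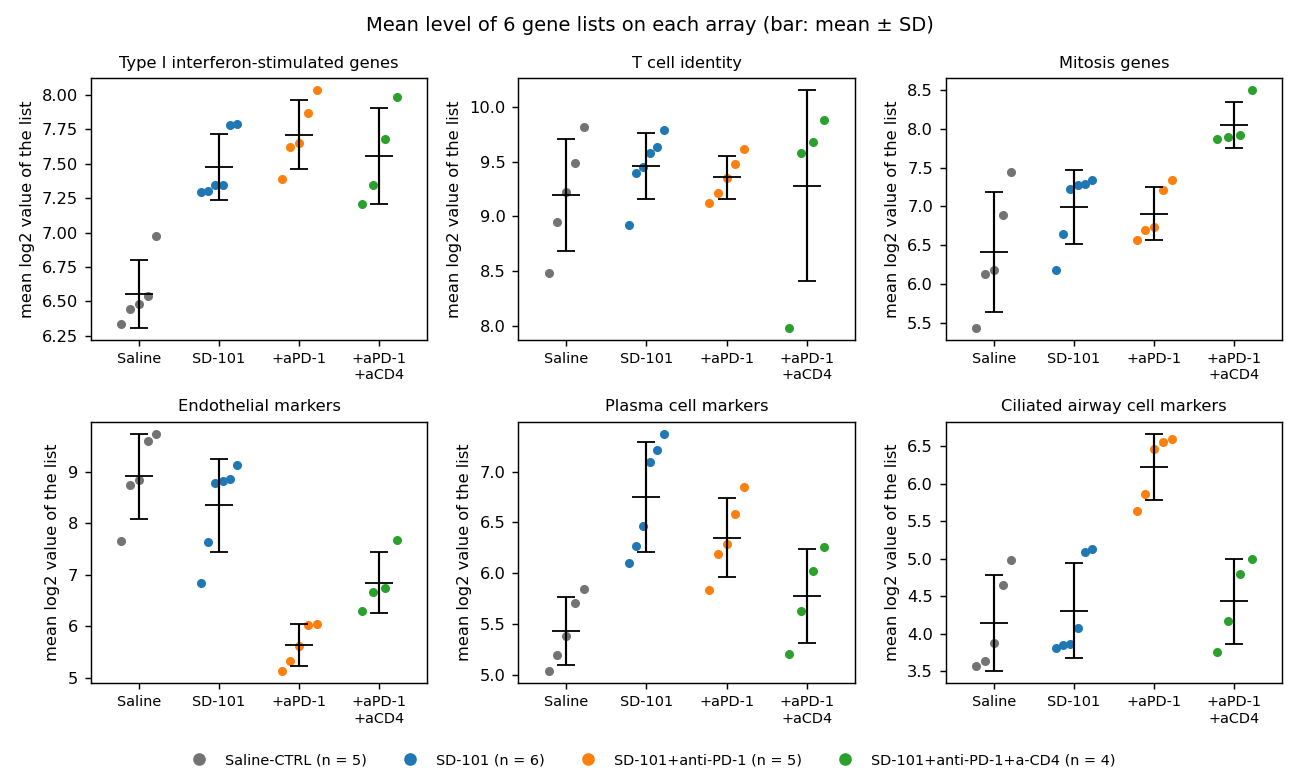
Each point is the mean log2 level of a gene list on 1 array, by treatment group, with the group mean and SD as a bar. Of these 6 lists, the interferon list alone separates all SD-101-treated arrays (7.21 and above) from saline (6.98 and below). Endothelial and ciliated cell levels set the SD-101+anti-PD-1 arm apart, and mitosis genes the triple arm.

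Activation-linked transcripts fell in the pooled comparison but mostly not alike. Of 22 immediate early and AP-1 genes, which respond within minutes to receptor signals and to tissue handling, 11 fell and 1 moved alike. That gene, Egr1, was 11.30, 10.86, 11.87, 11.91 and 11.60 log2 on saline arrays. It ran from 10.35 through 10.84 to 11.00 in SD-101. It was 10.22, 10.49, 9.87, 10.14 and 10.14 with anti-PD-1 and 10.40, 10.40, 9.95 and 10.52 in the triple arm. SD-101 arrays reached just into the saline range, and the fall was -1.10 log2 (SE 0.158, limma adjusted p = 8.94e-04). Fos fell by 0.59, with -0.17, -0.66 and -0.93 in the arms (test between arms, adjusted p = 0.00452), and Klf4 by 1.56 (-0.65, -2.18 and -1.84). None of 12 heat shock chaperones was called. Without Saline-CTRL replicate 3, 5 of the 22 fell.

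Among 12 clock repressor and output genes, 6 fell and Per1, a clock repressor, moved alike at -0.93 (-0.73, -1.11 and -0.94, adjusted p = 0.0282), a call lost without Saline-CTRL replicate 3 (0.112). Dbp, a clock output factor, fell by 1.29, with arm differences of -1.40, -0.57 and -1.90. None of 5 clock genes of the opposite phase was called. The labels give no time of collection, so the hour and the treatment cannot be told apart. Per1 is also among 14 glucocorticoid-responsive genes, of which 5 fell. Without Saline-CTRL replicate 3, 2 of the clock genes and 1 of the glucocorticoid-responsive genes fell.

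Memory and naive-associated genes fell unevenly. Of 15, 4 fell (Klf2, Klf3, S1pr1 and Foxp1) and none moved alike. Klf2, which sustains lymphocyte egress, differed by -0.10 in SD-101, -0.97 with anti-PD-1 and -1.51 in the triple arm (test between arms, adjusted p = 0.00602), and its target S1pr1 by -0.44, -1.33 and -1.44. Klf2 and S1pr1 are also made by endothelium, whose levels are given above. Their part in this fall was not tested.

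Proliferation genes were a contrast of another kind. Of 21 mitosis genes, 10 rose and none moved alike. All 21 had a positive pooled difference, as had 10083 of all 17097 genes. The list's median was 0.59 in SD-101, 0.52 with anti-PD-1 and 1.70 in the triple arm. Mki67, a marker of cycling cells, rose by 1.13 (0.75, 0.88 and 1.77; test between arms, adjusted p = 0.0466), and the spindle motor Kif11 by 0.90 (0.59, 0.20 and 1.90). The count ranged from 2, without Saline-CTRL replicate 3, to 16. Of 21 DNA replication genes 4 rose, and Ccne1, the cyclin that starts S phase, moved alike at 0.99. Of 15 glycolysis genes Pfkp rose, by 0.45.

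In all, 918 genes (5.37%) differed between the 3 SD-101 arms, and 278 of the 786 genes called in the pooled comparison were among them. For these a pooled value averages unlike arms. RNA control signals also differed by arm. The 18S 3 prime probe set was 10.23 to 11.1 log2 in saline and 10.28 to 10.83 in SD-101. It was 10.97 to 11.62 with anti-PD-1 and 10.85 to 11.53 in the triple arm. Gapdh 3 prime was 10.98 to 11.87, 11.03 to 11.7, 11.23 to 11.63 and 11.82 to 12.2 in the same order. The beta-actin 3 prime ranges overlapped. The part of these signals in the differences between arms was not tested. Cma1, a mast cell chymase, was called at 0.88 but was 2.57 in SD-101, -0.42 with anti-PD-1 and 0.48 in the triple arm (test between arms, adjusted p = 1.56e-04). Its pooled call was lost in 16 of 20 fits that left out 1 array. Among the 13 mast cell markers it was the only one to rise, and Kit and Gata2 fell by 1.25 and 1.58. Jchain and Ighm rose by 2.50 and 2.41, with 3.49, 2.86 and 1.15 for Jchain, as 2 of 11 plasma cell markers. The plasma cell factor Xbp1 differed by 0.14 (adjusted p = 0.651). The mean plasma cell marker level was 5.04 to 5.84 on saline arrays, 6.10 to 7.38 in SD-101, 5.83 to 6.85 with anti-PD-1 and 5.21 to 6.26 in the triple arm, the last 2 overlapping saline. Pigr, the airway receptor that carries IgA, rose by 2.35, with 1.43, 3.97 and 1.64 in the 3 arms. It was the only one of 15 airway secretory markers called, its call was lost in 9 of 20 fits that left out 1 array, and its adjusted p was 0.053 with a replicate block. With anti-PD-1, ciliated cell markers stood at 5.63 to 6.60 against 3.57 to 4.99 in saline. Col1a1, of fibroblasts, rose as 1 of 18 matrix markers.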

How the data were processed

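Values are on the log2 scale, 1 for each probe set of an Affymetrix array, as the authors deposited them. Per the submitters' processing notes, affy, RMA and limma were used and the build was mm8, with role and order not given. Log2 differences of dim probe sets can be understated. Of 45141 probe sets, 28898 had 1 gene symbol in the platform annotation, 551 several and 15692 none, and 28689 matched RefSeq with 0 symbols changed. The probe set of highest mean over all 20 arrays stood for each of 17097 genes. The values, from 1.78 to 13.44, were used without further normalization or filter.

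All 4 groups were fitted in limma 3.58.1 (R 4.3.3) with 2-sided moderated tests, Benjamini-Hochberg adjusted over all genes, and a moderated F test between the 3 arms. Arrays carry no read depth, and their number limits the precision. The fit was tested on simulated data. Members, the 36 gene lists and tests were chosen with earlier results of these data known. Named genes were, among genes moved alike and apart from predicted genes, small RNAs and antigen receptor segments, the 12 largest rises, the 12 largest falls and the 10 of smallest p. To these were added up to 4 called genes of smallest p per list, 12 genes called in each arm, up to 6 of smallest p between arms and 12 fixed singly. Motifs were searched on both strands of RefSeq promoters of GRCm38.p6, and overlapping matches were counted. A further motif is not reported here. Other settings changed scaling, probe set choice, level filter, variance model, array weights, covariates, a replicate block and the arrays used.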

Additional observations from a re-analysis of the deposited data

Results flagged for a closer look

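Of 428 groups of 4 to 6 arrays tested over 107 named genes, 20 held an array far from the others by Dixon's criterion. The criterion flags about 1 in 20 independent groups by chance. These groups reuse the same arrays for every gene, so the total cannot be judged against that rate. Of the 20 flagged, 8 were triple-arm replicate 2. It was low for Cd8a (9.45 log2, the others 11.30 to 11.66), Cd8b1 (9.68), Pdcd1 (7.25), Nfkbia (9.85), Rgs2 (7.11), Sftpc (12.62) and Tsc22d3 (9.05), and high for Cxcl9 (8.25). Its T cell identity level was 7.98, the lowest of the 20 arrays.

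Saline-CTRL replicate 1 was low for Ifng (6.74, the others 8.05 to 8.37), Cd160 (4.39) and Irgm1 (7.40), and its neutrophil marker level was 9.998 against 3.63 to 3.99 on the other saline arrays. Saline-CTRL replicate 2 was low for Dusp1 (11.36) and Per1 (6.83). Among SD-101 arrays, replicate 2 was high for Ly6i (8.80) and Igtp (11.22) and low for Cd8a (10.38), and replicate 1 was high for Ifit1bl1 (8.74) and low for Klf4 (8.21). With anti-PD-1, Dlc1 was low on replicate 3 (5.16) and H2-DMa high on replicate 1 (8.93).

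Of 107 named genes, 32 differed between the SD-101 arms in limma's moderated F test, Benjamini-Hochberg adjusted. Over all genes the share was 5.37%. Some genes, such as Cdhr4, were named because their p in this same test was among the smallest. The count among named genes therefore cannot be judged against the share over all genes. Genes of motile cilia had adjusted p of 2.39e-04 (Tekt2), 7.73e-04 (Eno4, Foxj1), 0.00166 (Cdhr4), 0.00183 (Hoatz), 0.0035 (Rsph1) and 0.00762 (Mlf1). Of the mast cell list, Cma1, which rose, had 1.56e-04, and Kit and Gata2, which fell, had 0.0127 and 0.0261. Endothelial genes had 0.00303 (Calcrl, Clec14a, Plvap) and 0.00793 (Vwf). Immediate early and stress-linked genes had 0.00452 (Fos), 0.00602 (Klf4), 0.021 (Dusp1), 0.0115 (Rgs2) and 0.0404 (Nfkbia). Memory-associated genes had 0.00602 (Klf2), 0.0268 (S1pr1), 0.0265 (Foxp1) and 0.0439 (Klf3). Proliferation genes had 0.00313 (Kif11), 0.026 (Nusap1), 0.0391 (Rrm2), 0.0466 (Mki67) and 0.0481 (Tyms). The rest were Foxp3 (0.0209), Ubd (0.0221), Tef (0.0351) and Isg20 (0.0364).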

How the results depend on the processing

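Centring arrays, quantile normalization, averaging probe sets, a level filter, a robust trend and equal weight per array kept the counts of genes called, moved alike, called in each arm and differing between arms within 1.5 times, wherever each was run. Array weights gave 1265 genes called, 454 moved alike, 74 called in each arm and 3314 differing between arms. With 4 cell type levels as covariates these were 4, 4, 1 and 2. 2 of 99 named calls were kept, and Bmpr2 (0.418) and Lims2 (0.143) changed sign without a call. The cause was not tested. SD-101 arrays fitted as 1 group gave 152 called. With fewer arrays in the fit, the 2 groups alone gave 10 for SD-101, 728 for SD-101+anti-PD-1 and 476 for the triple arm, which turns round the order of the last 2. A ratio of 2/3 gave 103 genes moved alike and 1/3 gave 465. Adjusting the largest of 3 arm p-values left 17 called in each arm. Without the 2 arrays of lowest T cell identity level (triple-arm replicate 2 and Saline-CTRL replicate 1), 105 genes lay wholly beyond saline, against 55. Leaving out arrays, here or below, can only keep or raise this count.

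Leaving out each array in turn gave 248 to 993 called, 110 to 328 moved alike, 15 to 54 called in each arm, 380 to 1224 differing between arms and 56 to 112 wholly beyond saline. Saline-CTRL replicate 3 gave the lowest called (248) and alike (110), with replicate 4 next (521 and 156). For calls in each arm the low values were 15 (Saline-CTRL replicate 1, SD-101 replicate 3), 16 (SD-101 replicate 5), 19 (Saline-CTRL replicate 3), 21 (SD-101 replicate 4, and replicate 3 of the SD-101+anti-PD-1 arm), 22 and 23 (Saline-CTRL replicates 4 and 2). Between arms they were 380, 408 and 583 (replicates 4, 1 and 3 of the SD-101+anti-PD-1 arm), 462 and 578 (SD-101 replicates 3 and 4) and 558 (triple-arm replicate 1). Wholly beyond saline, the high counts were 87, 105 and 112 (Saline-CTRL replicates 4, 2 and 5). Of 99 named calls, 59 held throughout.

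With replicate number as a block, 776 genes were called, 228 moved alike, 24 were called in each arm and 840 differed between arms. Same-numbered samples shared deviations in 9 of 27 pairs (correlation over 0.1) and 2 of 20 samples were closest to their own number, so the numbers were not taken as pairs.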
